A study of Ovis aries with 13 samples.

Results

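PSPH, MTHFD2 and TYMS encode 3 enzymes of serine, folate and thymidylate synthesis, and all 3 transcripts were more abundant in newborn than in fetal sheep left ventricle by group means. They were read through every non-control probe whose gene, by the name in the array files or by the gene ID that those files give, was one of the 3. This gave 4 probes among 15008 on the array, 1 for PSPH, 2 for MTHFD2 and 1 for TYMS, beside 1383 probes with a single gene name for 859 genes. The genes had been picked from the difference between the ages on these same arrays, so their values by age are given as a description, with no test. All 4 probes were among the 10258 that were well above background on at least 6 arrays.

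Total RNA of the left ventricle of sheep was measured on 13 Agilent 1-colour arrays, in a study of how the heart changes at birth. The fetal group held 6 samples at gestational day 142, 2 from females and 4 from males. The newborn group held 7 samples at day 1 of life, 4 from females and 3 from males. Tissue was frozen at collection, no treatment or genotype is named for either group, and the labels give neither breed nor mode of delivery. Under different letters, 9 of the 13 samples share 4 animal numbers within their group, for reasons that the labels do not state. Some with a shared number also share the sex, so they may be relatives or repeat samples of 1 animal, the number of animals may be under 13, and the spread between arrays may understate that between animals. Each n below counts arrays. Slide 1 carried 4 fetal and 3 newborn arrays, and slide 2 carried 2 and 4. The signal at the array's 75th percentile was 219 to 367 intensity units, or 8.77 to 13.6 times the median background, and 62.7% to 71.4% of probes were well above background. With so few arrays, precision is limited throughout. None of the 16 cardiomyocyte markers listed for this work was named on the array, so the tissue could not be checked against them. Newborn replicate 6 stood apart from the other newborn arrays for TYMS and for several cell cycle genes, and values that rest on it are given with and without it.

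PSPH, phosphoserine phosphatase, takes the phosphate off phosphoserine and so completes the synthesis of serine from a glycolytic intermediate. Serine hands a carbon unit to tetrahydrofolate, and MTHFD2, known for high levels in embryonic and proliferating cells, oxidises the resulting methylene-tetrahydrofolate inside mitochondria. TYMS, thymidylate synthase, uses methylene-tetrahydrofolate to turn dUMP into dTMP, the DNA building block that other routes supply only by salvage of thymidine.

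The 4 probes are shown because every value below is the brightness of one of these spots. Each is a 60-base oligonucleotide, printed 5′ to 3′ as the array files give it, with capitals for the longest run of bases that it shares, in the same orientation, with any other probe on the array.
PSPH, A_70_P009411: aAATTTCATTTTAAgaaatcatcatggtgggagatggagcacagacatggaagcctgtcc
MTHFD2 probe 1, A_70_P045142: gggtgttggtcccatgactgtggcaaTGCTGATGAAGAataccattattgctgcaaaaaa
MTHFD2 probe 2, A_70_P045141: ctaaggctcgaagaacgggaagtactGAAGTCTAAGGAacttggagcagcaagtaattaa
TYMS, A_70_P070554: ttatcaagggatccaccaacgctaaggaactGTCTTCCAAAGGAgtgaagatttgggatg
The longest shared run was 13 bases for PSPH and TYMS and 12 for each MTHFD2 probe. Only exact runs were searched, so copies with scattered mismatches would not have been seen. The MTHFD2 probes do not overlap: they start at bases 268 and 332 of the transcript sequence they were designed on. The PSPH probe starts at base 501 and the TYMS probe at base 78 of theirs, and the files list all 4 as unmapped on a genome, so no chromosome position is given. The files name the PSPH probe by its symbol and the others only by a locus number, which the RefSeq gene table resolves to MTHFD2 and TYMS. A further 2 probes carry no gene name but belong to the same transcript clusters as MTHFD2 and TYMS. They are no members, and are used below as a second reading of those clusters.

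Levels are given as log2 of the processed signal minus the array's 75th percentile, so that 0 is a spot as bright as that percentile and each step of 1 is a doubling. Levels of different probes are not set against each other, since probes bind with different strength. As a background for the counts below, 2367 of the 10258 tested probes (23.1%) differed between the ages, in either direction, at an adjusted p under 0.05 by limma. The 7 newborn arrays all lay above the 6 fetal arrays for 3.38% of probes, and 1.86% were at least 2-fold higher by group means. In tissue pieces, fewer cells of a type and less RNA per cell cannot be told apart.

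PSPH was higher on every newborn array than on any fetal array. Its fetal levels ran from -4.55 to -4.00 with a median of -4.11, and its newborn levels from -3.34 to -2.34 with a median of -2.82. The 2 ages did not overlap, with a gap of 0.66 between the highest fetal and the lowest newborn value. The group means were -4.19 ± 0.21 (SD, n = 6) and -2.78 ± 0.38 (SD, n = 7), a log2 change of 1.41 with an SE of 0.17, or 2.66-fold. Newborn replicate 3 was the highest array and fetal replicate 4 the lowest. The signal was dim: it was 10.3 to 22.3 intensity units in fetuses, where 4 of 6 arrays were well above background, and 27.6 to 68.9 in newborns, where 7 of 7 were. The log2 change was 1.54 on slide 1 and 1.30 on slide 2.

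MTHFD2 was about 2-fold higher in newborns by both of its probes. On probe 1, the brighter, fetal levels ran from -3.29 to -2.61 with a median of -2.82, and newborn levels from -2.42 to -1.14 with a median of -1.77. The groups did not overlap, though only 0.18 separated the highest fetal from the lowest newborn array. The means were -2.90 ± 0.25 (SD, n = 6) and -1.89 ± 0.43 (SD, n = 7), a log2 change of 1.01 with an SE of 0.19, and every array was well above background. The change was 1.15 on slide 1 and 0.87 on slide 2.

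Probe 2 of MTHFD2 gave a change of the same size with 1 newborn array out of place. Its fetal levels ran from -4.29 to -3.36 with a median of -3.84, and its newborn levels from -4.12 to -1.90 with a median of -2.58. Of the 7 newborn arrays, 6 lay above every fetal array, and newborn replicate 6, where the spot was not well above background, lay inside the fetal range. The log2 change was 1.00 with an SE of 0.28, and 1.22 with an SE of 0.19 without that array. The unnamed probe of the MTHFD2 cluster, well above background on all 13 arrays, had fetal levels of -2.33 to -1.13 and newborn levels of -1.37 to 0.12. It changed by 1.07 with an SE of 0.24, with 6 of 7 newborn arrays above all fetal ones, and there the array inside the fetal range was newborn replicate 1. In the authors' series matrix, which holds this probe and none of the 4 members, its log2 change was 0.55.

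TYMS had the widest newborn spread of the 4 member probes. Fetal levels ran from -4.13 to -3.17 with a median of -3.72, and newborn levels from -4.24 to -1.57 with a median of -2.09. Of the 7 newborn arrays, 6 lay above every fetal array, while newborn replicate 6, at -4.24, lay below every fetal array. Over all tested probes, 7.35% had the 6 other newborn arrays above every fetal one. This share leaves out an array picked after its values were seen. The share with any single newborn array out of place, for this or other probes, was not computed. The means were -3.73 ± 0.35 (SD, n = 6) and -2.39 ± 0.91 (SD, n = 7), a log2 change of 1.34 with an SE of 0.35, or 2.54-fold. Without newborn replicate 6 the newborn mean was -2.09 ± 0.44 (SD, n = 6) and the change 1.65 with an SE of 0.21, or 3.14-fold. The change was 1.78 on slide 1 and 1.13 on slide 2, which holds newborn replicate 6.

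Among newborns, the unnamed probe of the TYMS cluster was likewise highest on replicate 1 and lowest on replicate 6. Its fetal levels ran from -0.90 to -0.27, the 6 other newborn arrays from 0.42 to 1.20, and newborn replicate 6 was at -0.96. This spot was brighter, 129 to 792 intensity units, and well above background on all 13 arrays, newborn replicate 6 among them. Its log2 change was 1.31 with an SE of 0.29, and 1.59 with an SE of 0.15 without newborn replicate 6. In the authors' series matrix its change was 1.03.

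**Figure D1:**
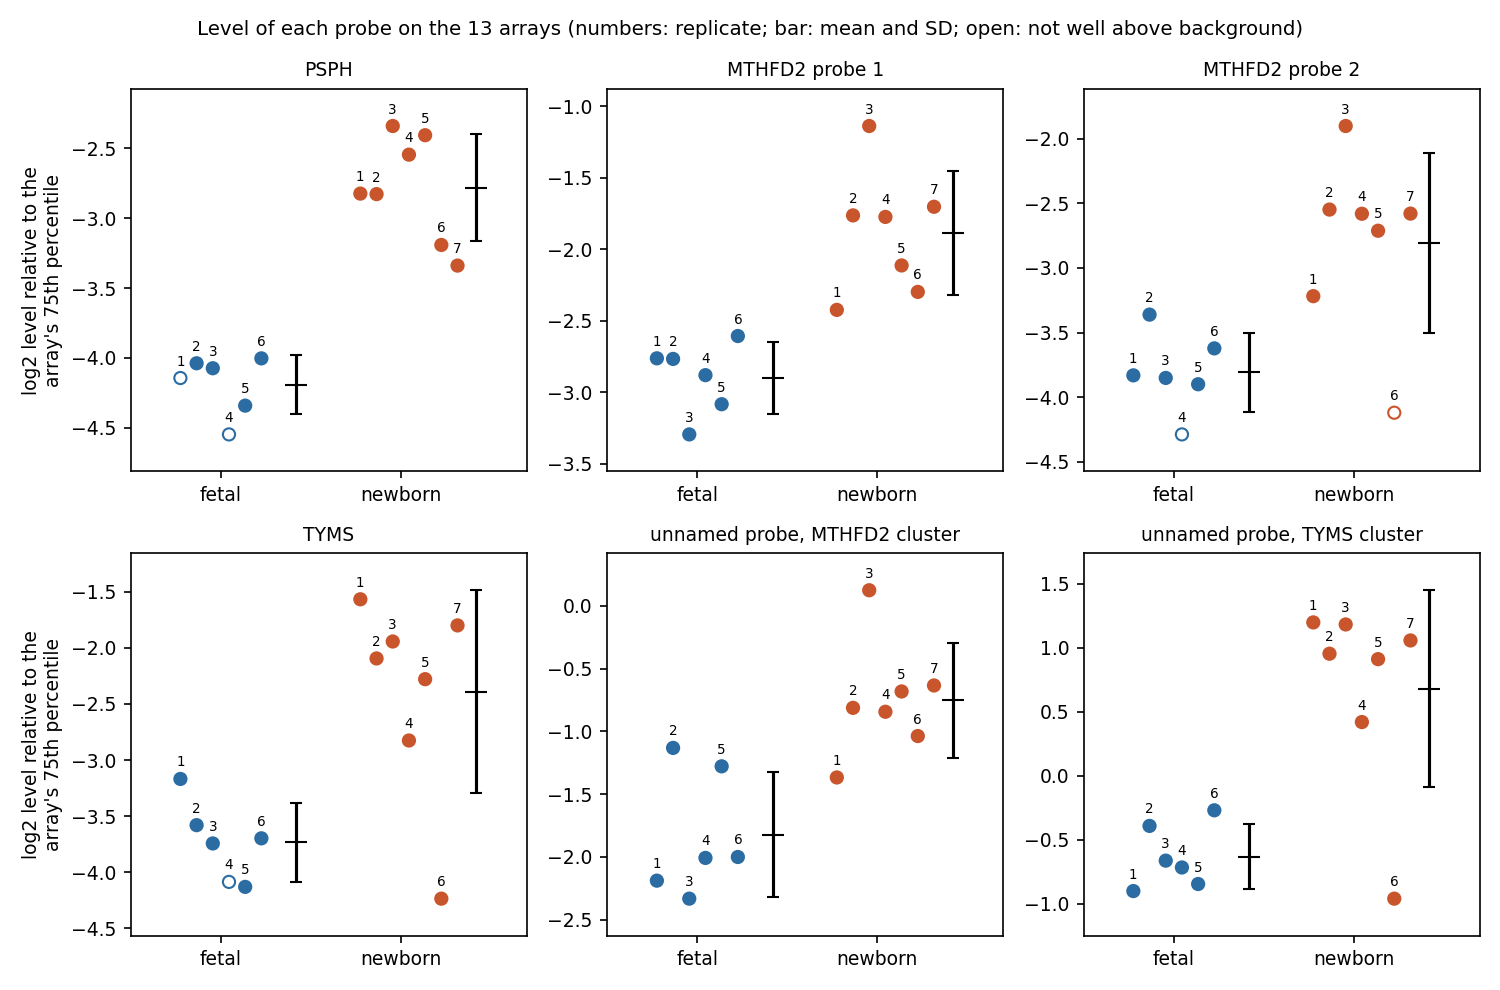
Level of each of the 4 member probes and the 2 unnamed probes of the same transcript clusters, as log2 relative to the array's 75th percentile, on 6 fetal and 7 newborn arrays. Points are arrays with their replicate number, open where the spot was not well above background, and the bar is the group mean with its SD. All newborn arrays lie above the fetal ones for PSPH and MTHFD2 probe 1. Newborn replicate 6 lies in or below the fetal range for MTHFD2 probe 2, TYMS and the unnamed probe of the TYMS cluster.

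The newborn arrays differed in which of the 3 genes was raised most. Newborn replicate 3 was the highest of all arrays for PSPH, for both MTHFD2 probes and for the unnamed MTHFD2 probe. Newborn replicate 1 had the highest TYMS level, -1.57, and the lowest newborn level of MTHFD2 probe 1, -2.42. Newborn replicate 7 had the second highest TYMS level, -1.80, and the lowest newborn level of PSPH, -3.34. Newborn replicate 4 had a TYMS level of -2.83, the lowest after replicate 6, with a PSPH level of -2.55. The plot of newborn arrays against the fetal mean shows these differences.

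**Figure D2:**
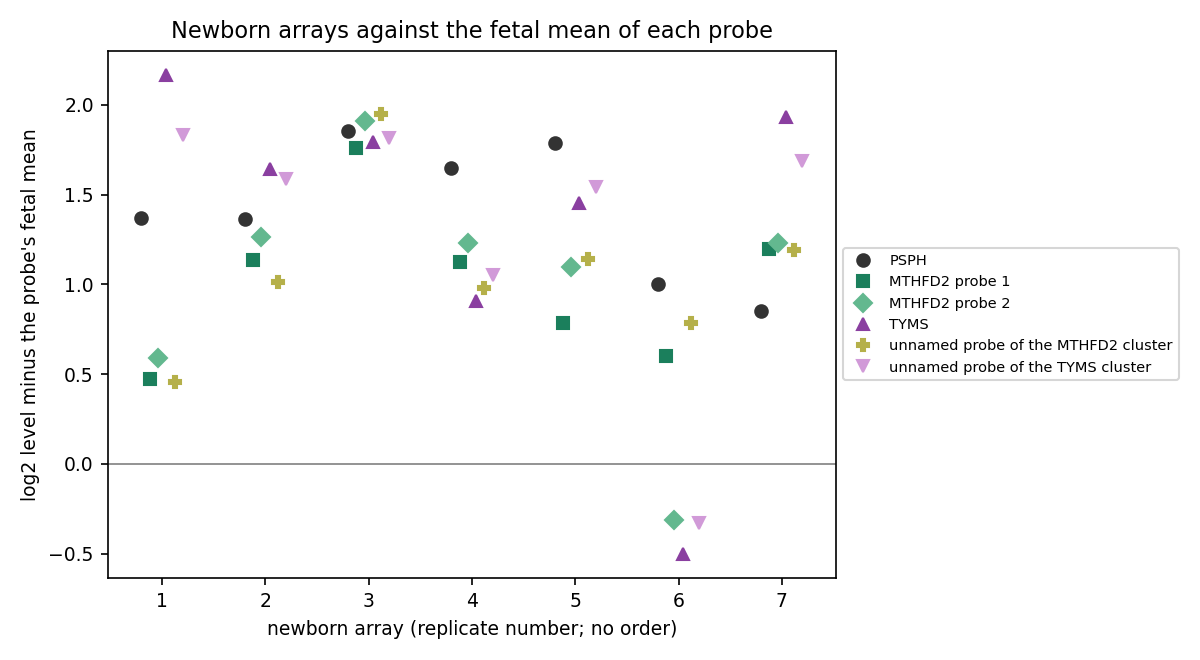
Level on each of the 7 newborn arrays minus the fetal mean of the same probe, on the log2 scale, for the 4 member probes and the 2 unnamed probes. The replicates have no order. On replicate 6 TYMS, the unnamed probe of the TYMS cluster and MTHFD2 probe 2 lie below 0. On replicates 1 and 7 the TYMS points lie above those of MTHFD2.

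Within each age group, no correlation between the 3 genes over arrays passed the test, with 6 pairs examined by an exact permutation test (two-sided). In the 6 fetal arrays Pearson's r was 0.213 for PSPH and MTHFD2, 0.643 for PSPH and TYMS and 0.403 for MTHFD2 and TYMS, with exact p of 0.679, 0.175 and 0.426. Spearman's rho was 0.486, 0.543 and 0.657, with exact p of 0.356, 0.297 and 0.175. In the 7 newborn arrays r was 0.357, 0.248 and 0.306 for the same pairs, with exact p of 0.438, 0.639 and 0.495, and rho was 0.143, -0.036 and 0.179, with exact p of 0.783, 0.963 and 0.713. After Benjamini-Hochberg adjustment over the 6 exact tests, every p of r was 0.679 and those of rho ran from 0.711 to 0.963.

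Several of these r rested on 1 or 2 arrays. The r of 0.643 for PSPH and TYMS in fetuses was -0.812 without the 2 arrays farthest from the PSPH median, fetal replicates 4 and 5. Without the 2 farthest arrays the other fetal pairs had r of 0.264 and 0.338, and the newborn pairs 0.409, 0.544 and 0.769. With newborn replicate 6 left out, r in newborns was -0.454 for PSPH and TYMS and -0.170 for MTHFD2 and TYMS. Without newborn replicate 3, it was -0.056 for PSPH and MTHFD2. With 6 and 7 arrays, some of which share an animal number, these r are imprecise.

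Probes of the same gene or transcript cluster followed each other closely among newborns and loosely among fetuses. That the unnamed probes read the same transcript as the named ones was not tested. The 2 MTHFD2 probes had r of 0.84 over the 7 newborn arrays, 0.98 without newborn replicate 6, and 0.35 over the 6 fetal arrays. Probe 1 and the unnamed MTHFD2 probe had r of 0.92 in newborns and 0.14 in fetuses. TYMS and the unnamed TYMS probe had r of 0.99 in newborns, 0.95 without newborn replicate 6, and 0.03 in fetuses. These r are descriptions, since probes on an array share its RNA and labelling.

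**Figure D3:**
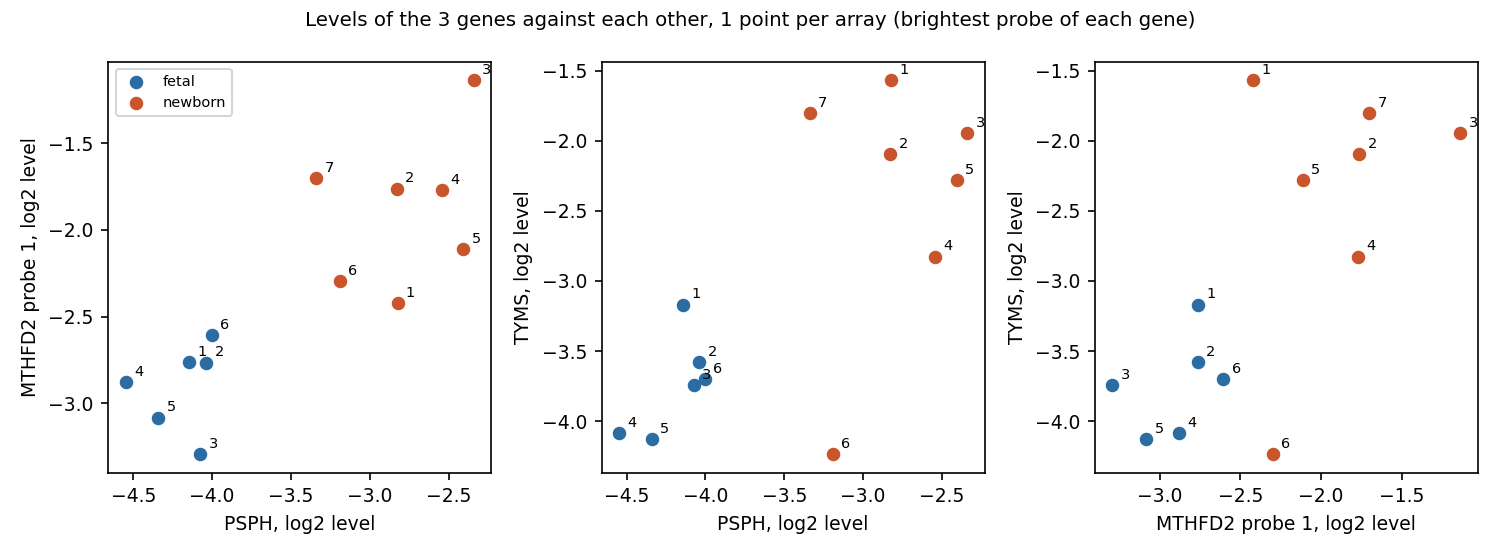
Levels of PSPH, MTHFD2 (probe 1) and TYMS against each other on the log2 scale, 1 point per array with its replicate number, fetal arrays in blue and newborn arrays in orange. The 2 ages form separate clouds in the plot of PSPH and MTHFD2, with r of 0.213 and 0.357 within them. Newborn replicate 6 lies below every fetal TYMS level in both other plots.

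No member probe passed the limma test for sex or for slide, with p adjusted over all 10258 probes. Female minus male, with age in the model, was 0.12 (SE 0.18) for PSPH, -0.01 (SE 0.20) for MTHFD2 probe 1, 0.26 (SE 0.29) for MTHFD2 probe 2 and 0.42 (SE 0.35) for TYMS, each at a limma adjusted p of 0.999. Across the array 1 probe (0.00975%) passed for sex, with 331 at an unadjusted p under 0.05. With 1 array left out, the difference of TYMS ran from 0.02, without newborn replicate 6, to 0.60, without newborn replicate 3, both males. In newborns, PSPH averaged -2.78 in 4 female samples and -2.79 in 3 male samples, and in fetuses -4.02 in 2 and -4.28 in 4. Slide 2 minus slide 1 was -0.10 (SE 0.17) for PSPH, -0.08 (SE 0.20) and -0.22 (SE 0.29) for the MTHFD2 probes and -0.63 (SE 0.33) for TYMS, with limma adjusted p from 0.916 to 0.996. For slide 0 probes (0.00%) passed, with 533 at an unadjusted p under 0.05. The TYMS difference between slides was -0.36 without newborn replicate 6.

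The array named few other genes of the pathway. Of 99 genes in 6 lists (serine and glycine, folate, methionine, users of glycine, purines, and pyrimidines with deoxynucleotides), 8 were named on it and 7 tested, 3 of them the members. Of the 4 others, 1 rose and 1 fell at a limma adjusted p under 0.05, where 15.5% of the 568 named and tested genes rose and 8.63% fell. The methionine list and the list of glycine users had no named gene, and MTHFD2 was the single named gene of the folate list. PHGDH and PSAT1, which carry out the steps before PSPH, were not named on the array.

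SHMT1, serine hydroxymethyltransferase, which moves a carbon unit from serine to tetrahydrofolate and makes glycine, ran opposite to the members. The files name its 2 probes SHMT2, the mitochondrial form, while the RefSeq table assigns their transcript to SHMT1 with SHMT2 as a synonym, so which form they measure is not settled here. Fetal levels of the brighter probe ran from -3.46 to -2.70 with a median of -2.81, and newborn levels from -5.00 to -4.21 with a median of -4.39. All 7 newborn arrays lay below every fetal array, as was so for 3.51% of tested probes. The fall was a log2 change of -1.66 (SE 0.16, limma adjusted p = 4.3e-05), with 6 of 6 fetal but 3 of 7 newborn arrays well above background. The other probe changed by -1.63 (SE 0.22, limma adjusted p = 0.00052). With newborn values below the lowest signal called well above background raised to it, the change of the brighter probe was -1.52. Normexp background correction gave -1.16 with the median background and no offset, and -0.41 with that background and an offset of 50 (limma adjusted p = 0.0056). With spot background and the same offset it gave -0.46, and the call was lost (limma adjusted p = 0.77).

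Among the genes that build purine and pyrimidine rings, ATIC alone passed, and narrowly. ATIC carries out the last steps of purine ring synthesis, of which the earlier takes a formyl group from folate. Its fetal levels ran from -2.72 to -1.21 and its newborn levels from -1.86 to -0.81, so the groups overlapped, and 1 of 7 newborn arrays lay above every fetal one. It rose by 0.67 (SE 0.22, limma adjusted p = 0.039), and it missed the threshold in 15 of 30 other ways of running the fit, whose adjusted p ran from 0.0065 to 0.97. With the animal number as a random block its change was 0.71 (limma adjusted p = 0.0505). ADSL, which acts in the step before it in that route and in AMP synthesis, changed by 0.05 (SE 0.16, limma adjusted p = 0.85). UMPS, which makes UMP, the pyrimidine from which dUMP derives, changed by 0.07 (SE 0.14, limma adjusted p = 0.76).

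The replication and cell cycle list, which bears on TYMS, had 11 named genes of 56, all tested. Of these 3 rose and 1 fell, where 15.5% of named and tested genes rose and 8.63% fell. Their median change was 0.53, against 0.10 over all named genes. PCNA, the clamp that holds DNA polymerase on its template, rose by 1.17 (SE 0.22, limma adjusted p = 0.00295), with 6 of 7 newborn arrays above every fetal one. AURKA, a mitotic kinase, rose by 0.64 (SE 0.18, limma adjusted p = 0.022). CDK2, the kinase of S phase entry, rose by 0.53 (SE 0.16, limma adjusted p = 0.026). CCND3, cyclin D3, fell by 0.39 (SE 0.10, limma adjusted p = 0.015). The calls were lost in 2 of 30 alternatives for PCNA, 5 of 28 for AURKA, 7 of 30 for CDK2 and 4 of 30 for CCND3, each time with the direction kept. With newborn replicate 6 left out, 8 of the 11 rose and 1 fell, where 20.6% of named genes rose. That array was set apart because TYMS and several genes of this list were low on it. The higher count follows in part from that choice and is no test of the list.

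The genes that TYMS followed most closely within the ages rested largely on newborn replicate 6. Over the 13 arrays, after each gene's group means were taken off, the 5 of 550 named genes with the highest r to TYMS were CCNA2 (cyclin A2, r 0.916), CDK1 (0.876), CCNB1 (cyclin B1, 0.876), PCNA (0.853) and H2AZ1 (a histone variant, 0.847). The unnamed TYMS probe had r of 0.893, and 0.565 without newborn replicate 6. Over the 13 arrays, the 95th percentile of r to TYMS among 10141 probes was 0.626. Newborn replicate 6 was the lowest newborn array for all 5: CCNA2 was at -6.05 there and between -3.44 and -1.74 on the others, CDK1 at -3.33 against -2.32 to -0.80, and H2AZ1 at 1.33 against 3.10 to 3.65. Without it, r was 0.671 for CCNA2, 0.754 for CDK1, 0.601 for CCNB1, 0.621 for PCNA and 0.243 for H2AZ1. CDK1 then ranked 1 and CCNA2 4 among the named genes, while PCNA ranked 11, CCNB1 15 and H2AZ1 126. These r describe 13 arrays that share labelling and slides and carry no test.

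MTHFD2 was most like a set of other genes. With probe 1, the highest r were those of ANXA2 (annexin A2, 0.849), HSPA5 (the endoplasmic reticulum chaperone BiP, 0.839), GRPEL1 (a cochaperone of mitochondrial protein import, 0.831), ARL1 (a small GTPase of the Golgi, 0.803) and PDIA5 (a protein disulfide isomerase, 0.789). These values stayed between 0.808 and 0.833 without newborn replicate 6. High r to probe 1 were common on the array: over the 13 arrays, the 95th percentile among 10141 probes was 0.663. The unnamed probe of the MTHFD2 cluster had a lower r to probe 1, 0.621, which ranked 680 among 10141 probes, and 0.602 without that array. ANXA2 rose by 0.73 (limma adjusted p = 0.0068) and ARL1 by 0.41 (limma adjusted p = 0.026), calls lost in 4 and 6 of 30 alternatives, while HSPA5, GRPEL1 and PDIA5 changed by 0.44, -0.03 and 0.21 and did not pass. None of the 5 is in the lists of serine or folate genes, and HSPA5 is in the ATF4 list. Newborn replicate 3, the highest array for MTHFD2, was also the highest for these 5 genes. The r without that array are not given here, so how far they rest on it is not known.

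PSPH followed other genes less closely. Its highest r were those of HPCAL1 (a neuronal calcium sensor relative, 0.760), LGALS1 (galectin 1, 0.740), ABHD5 (the activator of the triglyceride lipase ATGL, 0.706), IGFBP6 (an IGF binding protein, 0.667) and ATP6V1E1 (a subunit of the vacuolar proton pump, 0.656). Leaving out newborn replicate 6 gave 0.574 to 0.702. Over the 13 arrays, the 95th percentile of r to PSPH among 10141 probes was 0.482. LGALS1 rose by 1.23 (limma adjusted p = 0.0018) and ABHD5 by 0.71 (limma adjusted p = 0.0040), each call lost in 2 of 30 alternatives, and the other 3 did not pass.

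PSPH and MTHFD2 are known targets of ATF4, a transcription factor of amino acid shortage and endoplasmic reticulum stress. Of 40 genes in the list of ATF4 and its targets, 10 were named. Of the 7 tested beside the members, by their brightest probes, 0 rose by limma, 0 also at an unadjusted p under 0.05, and 1 fell. Over the 568 named and tested genes, 15.5% rose and 8.63% fell. The median change of the 7 was 0.33, against 0.10 over all named genes. The count depends on the probe for DDIT3, the stress transcription factor CHOP, which is named after its values were seen. Its brightest probe changed by 0.33 (SE 0.30, limma adjusted p = 0.44), while its dimmer probe rose by 0.62 (SE 0.13, limma adjusted p = 0.0049), with 6 of 7 newborn arrays above every fetal one. SARS1 rose in addition without newborn replicate 6. ATF4 itself ran from 0.93 to 1.24 in fetuses and from 1.07 to 3.61 in newborns, a change of 0.50 (SE 0.33, limma adjusted p = 0.28). That mean rests on newborn replicate 3, at 3.61 where the next newborn array had 1.67, and without it the change was 0.17. SARS1, seryl-tRNA synthetase, changed by 0.39 (SE 0.20, limma adjusted p = 0.17) and was also highest on newborn replicate 3, at 2.47. HSPA5 changed by 0.44 (SE 0.27, limma adjusted p = 0.25). With that array left out, SARS1 changed by 0.23 and HSPA5 by 0.28. CEBPB, another transcription factor of the list, fell by 0.53 (SE 0.14, limma adjusted p = 0.013), a call lost in 4 of 29 alternatives.

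**Figure D4:**
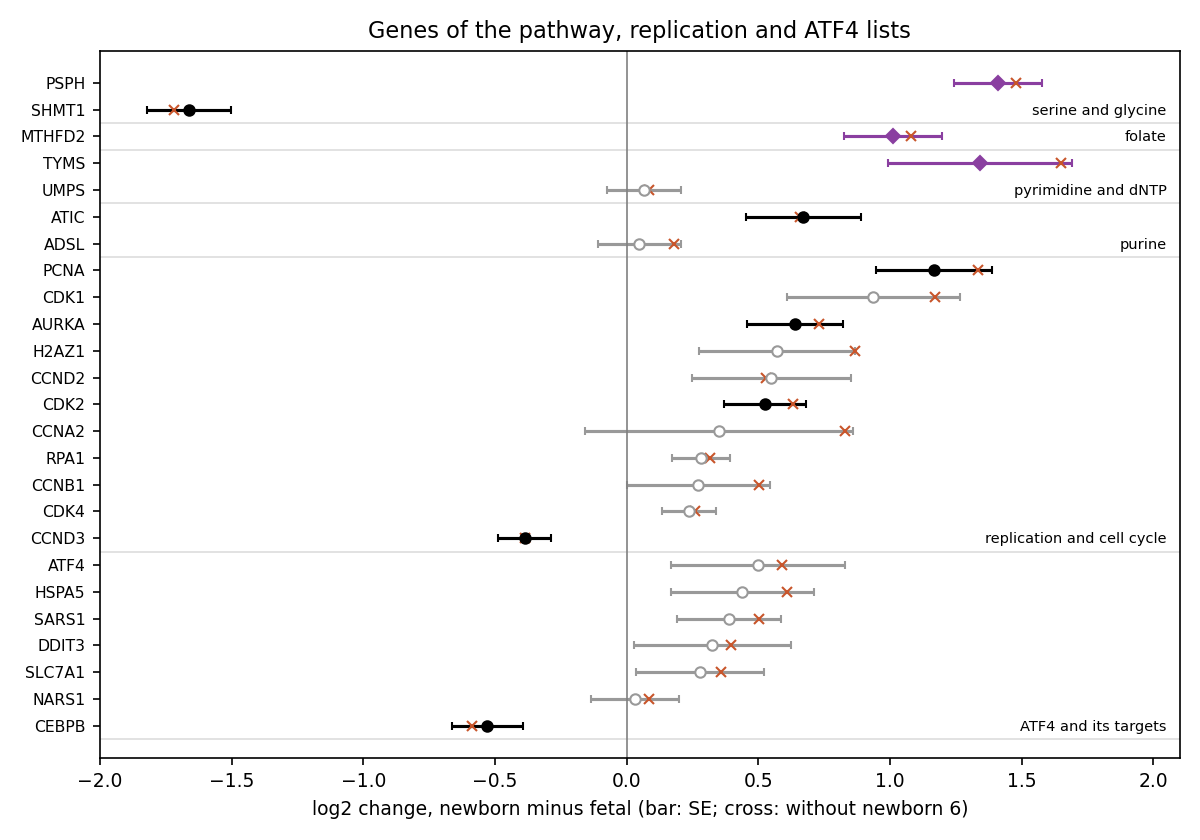
Log2 change, newborn minus fetal, of every tested gene of the pathway, replication and ATF4 lists by its brightest probe, with its SE. Purple diamonds are the members, shown as a description, filled circles genes with a limma adjusted p under 0.05, open circles the others, and crosses the change without newborn replicate 6. SHMT1 lies at -1.66 against 1.01 to 1.41 for the members, and the crosses of CCNA2, H2AZ1, CDK1 and CCNB1 lie to the right of their circles.

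Markers of other cells moved with age as well. As a background for their counts, 15.5% of the 568 named and tested genes rose by limma and 8.63% fell. Summed over the tested markers of a list on the linear scale, in units of the array's 75th percentile, the 3 erythroid markers of 14 listed ran from 55.6 to 268 in fetuses and from 25.7 to 69.3 in newborns, and all 3 fell by limma. Of 4 tested myeloid markers of 16 listed, 3 rose, and their sum ran from 0.74 to 1.10 in fetuses and from 1.07 to 2.35 in newborns. Of 3 tested lymphocyte markers of 12 listed, 2 fell, with sums of 0.25 to 0.71 and 0.09 to 0.22. Of 5 tested endothelial markers of 9 listed, 3 fell, with sums of 6.09 to 7.81 and 4.47 to 6.99. The 4 tested fibroblast markers of 8 listed had 0 calls by limma on their brightest probes, with 1 lower at an unadjusted p under 0.05. Their sums were 46.8 to 67.1 and 29.9 to 76.7, the highest in newborn replicate 6. Most of the fibroblast sum was DCN, which had a log2 level of 6.18 on that array. Likewise, HBB made up most of the erythroid sum and PECAM1 most of the endothelial sum. A dimmer probe of COL3A1, a fibrillar collagen, fell by 0.37 (limma adjusted p = 0.047). The single tested smooth muscle marker of 4 listed, CNN1, rose, from 3.63 to 7.17 in fetuses to 9.81 to 84.0 in newborns. On the arrays other than newborn replicate 6 the erythroid calls were 2 of 3, and the other counts of these lists were as given. Of the named markers, 1 lymphocyte marker and 1 myeloid marker were not well above background on any array. The part of these cells in the change of PSPH, MTHFD2 and TYMS was not tested.

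The size of the change in the 4 dim member probes moved with the background correction. With normexp on the mean signal, the median background of each array and an added offset of 50 intensity units, the log2 change was 0.50 for PSPH, 0.49 and 0.40 for the MTHFD2 probes and 0.64 for TYMS. With the background of each spot and the same offset it was 0.31 (SE 0.31) for PSPH and 0.39 (SE 0.30) for TYMS. For the MTHFD2 probes it was 0.37 (SE 0.27) and 0.27 (SE 0.31). With the median background and no offset it was 1.00 for PSPH, 0.79 and 0.71 for the MTHFD2 probes and 1.08 for TYMS. At the same offset, all 4 changes were smaller with spot background than with the median background. The SE of PSPH was 0.08 with the median background and 0.31 with spot background. Spot background was not run without the offset, so its values there are not known. The newborn mean was above the fetal mean in each case, but with spot background by about the size of the SE. The members' processed signals ran from 10.3 to 159 intensity units, while this offset adds 50 to every spot.

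**Figure D5:**
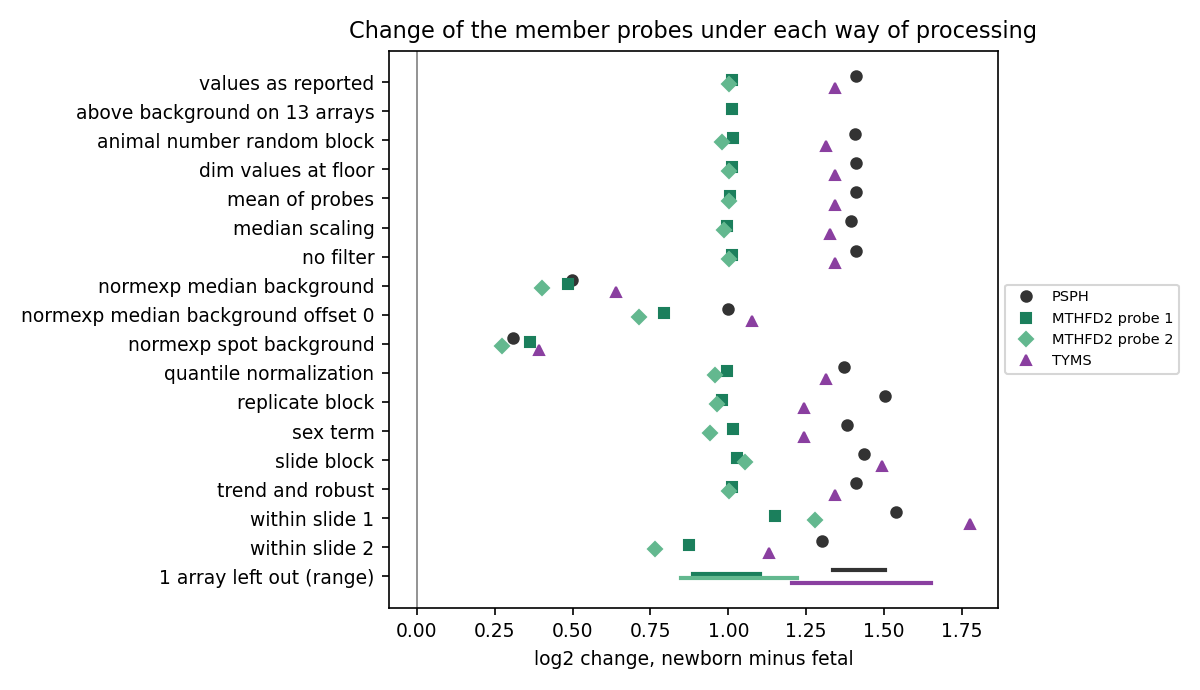
Log2 change, newborn minus fetal, of the 4 member probes under each way of processing the arrays, and the range when 1 array is left out. All values lie above 0. The 3 forms of normexp background correction give the values nearest 0, down to 0.27 for MTHFD2 probe 2, and slide 1 alone gives the highest TYMS value, 1.78.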

How the data were processed

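Per the file headers, the submitters made the spot intensity values with Agilent Feature Extraction 10.1.1.1, with background subtracted and trends removed within each array. The files hold a single green channel, while the protocol names Cy3 and the label field Cy5. The series matrix that the authors deposited gives what its values show to be log2 signals for 7041 probes, and served as an alternative. From the processed intensity, log2 minus each array's 75th percentile over non-control spots was computed, without control and outlier spots. Probes well above background on at least 6 arrays were tested. Names came from the files, updated through the RefSeq gene table (ARS-UI_Ramb_v3.0), and 13620 probes had none. A gene was read by its brightest tested probe. Groups were compared with limma 3.58.1 (lmFit, eBayes, two-sided) in R 4.3.3, Benjamini-Hochberg over tested probes at 0.05, after a check on simulated data. The SE is that fit's. The p-values measure the spread between these arrays, which may be partly technical.

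The members and gene lists were chosen with earlier results of these data known. Named were member probes, tested genes of the pathway lists, the 4 smallest p of the replication and ATF4 lists, and the 5 genes most correlated with each member. Others, chosen after their values were seen, serve as context. Promoter motifs were not analysed here. Alternatives changed the background correction, scaling, filter, values, model terms (slide, sex, replicate, animal number), variance estimate and probe choice, or left out an array. Normexp without offset, dim values at the detection floor and list counts without newborn replicate 6 were added after the data were seen.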

Additional observations from a re-analysis of the deposited data

Results flagged for a closer look

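Single arrays far from the rest of their group, by Dixon's test at 95%, were found in 11 of 62 groups of values, over the members, the 2 unnamed probes and the other named genes. Chance flags about 1 in 20 groups, and the genes share their arrays, so the flags are not independent. No member probe was among them.

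Newborn replicate 6 was the lowest newborn array for the unnamed probe of the TYMS cluster (-0.96), ADSL (0.0090), CCNA2 (-6.05), CCNB1 (-2.24) and H2AZ1 (1.33). Newborn replicate 3 was the highest for ATF4 (3.61) and ATIC (-0.81). Among fetal arrays, replicate 1 was the lowest for SHMT1 (-3.46), replicate 2 for H2AZ1 (2.25), replicate 3 for ARL1 (0.29) and replicate 5 for CDK1 (-3.73).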

How the results depend on the processing

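The 4 member probes had a newborn mean above the fetal mean under all alternatives run, with spot background by about 1 SE. Leaving out 1 array gave log2 changes of 1.34 to 1.50 for PSPH, 0.89 to 1.10 for MTHFD2 probe 1, 0.85 to 1.22 for MTHFD2 probe 2 and 1.20 to 1.65 for TYMS, and 1728 to 3117 probes past the threshold. Normexp with the median background gave 0.50, 0.49 and 0.40 for PSPH and MTHFD2 probes 1 and 2, and without offset 1.00 for PSPH. With spot background and an offset of 50 the values were 0.31, 0.37, 0.27 and, for TYMS, 0.39. In that setting 48 probes were past the threshold, with UMPS at -0.065, HPCAL1 at -0.016 and GRPEL1 at 0.018. Within slide 1, 356 probes passed and UMPS was -0.10, and within slide 2, 23 passed and ADSL was -0.030, CCNA2 -0.060, HPCAL1 -0.034 and IGFBP6 -0.11, with fewer arrays. With 1 array left out ADSL ran from -0.0097 (fetal replicate 2) to 0.18, and GRPEL1 from -0.078 to 0.018. The mean of its probes put GRPEL1 at 0.012. Some differences smaller than their SE turned sign with 1 array left out. Female minus male ran from -0.12 to 0.17 for MTHFD2 probe 1. For MTHFD2 probe 2 it ran from -0.036 to 0.52 and turned sign only without newborn replicate 6. Slide 2 minus slide 1 ran from -0.22 to 0.10 for MTHFD2 probe 1. With 1 array left out, r ran from -0.050 to 0.696 for PSPH and MTHFD2 in fetuses, and in newborns from -0.056 to 0.636 for PSPH and MTHFD2, -0.454 to 0.592 for PSPH and TYMS and -0.170 to 0.684 for MTHFD2 and TYMS. With normexp and the median background, r of PSPH and TYMS in newborns was -0.230. The cause of these shifts was not tested. Replicate numbers did not pair the samples (r of deviations -0.069 to 0.053 over 10142 probes), and with the replicate block, which leaves out newborn replicate 7, 1327 probes passed and the members changed by 1.50, 0.98, 0.96 and 1.24. With the animal number as a random block, 1720 probes passed, against 2367 without it. Signal over background limits the dim members.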
